A study of Mus musculus with 8 samples.

Results

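Heat shock proteins and the cochaperones that work with them were followed as a set of 44 mouse genes, listed by symbol and found on the arrays through the RefSeq accession of each probe. Of the 44 genes, 42 had at least 1 probe and 41 were bright enough to be tested, among 16377 named genes and 34543 tested items in all (an item is a named gene, read by its brightest probe, or a probe without a name). Hspa1b and Dnajb5 had no probe of their own accession. Hspa12a, an HSP70-related gene, had a probe that was not well above background on any of the 8 arrays.

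The arrays measured tumours grown from the mouse mammary carcinoma line 4T1 in female BALB/C mice that were 6 to 8 weeks old at injection into fat pad no. 3 and harvested on day 22. Before injection the cells of both groups spent 24 h with virus at 50 infectious units a cell, either empty adenovirus (control, n = 4) or Adenoviral-PRH (PRH-labelled, n = 4), so the controls carry a virus too. PRH is the homeodomain transcription factor encoded by Hhex, and the study's title asks about tumours that overexpress it. Mouse numbers 1, 2, 3 and 5 occur in both groups. The infection was of a cell pool before injection, and the labels give no measure of how long the virus or its product persisted. They also differ on the material, naming the tumour in one place and endothelial isolates in another. Markers of mammary epithelium (6 of 6 tested), leukocytes (7 of 7) and endothelium (9 of 9) were all well above background on all 8 arrays, so RNA with markers of each of these classes was on the arrays.

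Hhex itself was read first, as a check of the labels. Its level, like every level here the log2 signal minus the array's 75th percentile, was -0.58 ± 0.197 in the control group and -1.67 ± 0.143 in the PRH-labelled group (SD, n = 4 each). It was thus 2.13-fold lower on the arrays labelled PRH (limma adjusted p = 0.00686), opposite to the overexpression that the title names, and the group is called PRH-labelled throughout. Whether the probe can read the viral transcript was not tested. Control arrays had a brighter 75th percentile than PRH-labelled ones (1094 ± 131 and 722.4 ± 41.2, two-sided exact permutation p = 0.0286, the smallest p that 4 against 4 arrays allow), yet fewer of their probes were well above background (66.7% ± 2.30 and 73.18% ± 0.773, exact permutation p = 0.0286). All control arrays lay in slide column 2 and all PRH-labelled arrays in slide column 1, so position on the slide and group cannot be told apart.

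Heat shock proteins are molecular chaperones: they hold, fold or refold other proteins and hand those that cannot be rescued to degradation. HSP70 proteins bind short stretches of unfolded protein in a cycle driven by ATP, which J-domain proteins start and nucleotide exchange factors end, and HSP90 receives many kinases and steroid receptors from them. Small heat shock proteins keep unfolding proteins soluble without ATP, and a separate set of chaperones serves mitochondria. In stressed cells heat shock factor 1 switches many of these genes on together, and tumours are known for high chaperone levels.

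Most of the chaperone genes did not pass the test between the groups, and those that did moved in both directions. 4 of 41 were higher in the PRH-labelled group (Hspa1l, Hsp90ab1, Dnajc5 and Bag1; 9.76%), 2 were lower (Hspa13 and Dnaja2; 4.88%) and 35 did not pass (limma, adjusted p under 0.05 over all items). Over all tested items 17.2% were higher and 8.67% lower, and over the named genes alone 10.6% and 12.9%, so neither share of the chaperones stood above the background. All PRH-labelled arrays lay above all control arrays for 8 members (19.5%), against 20.1% of all items, and below them for 3 members (7.32%), against 11.3%. The median difference of the 41 members was -0.14 on the log2 scale (range -1.12 to 1.36), beside 0.29 over all items and -0.02 over the named genes. 17 differences were positive and 24 negative, and 13 had an unadjusted p under 0.05. The shares of all items for these 2 kinds of count, here and in the groups below, were not taken. Even after adjustment 8934 of 34543 items passed, so an unadjusted p under 0.05 was common over the array.

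**Figure D1:**
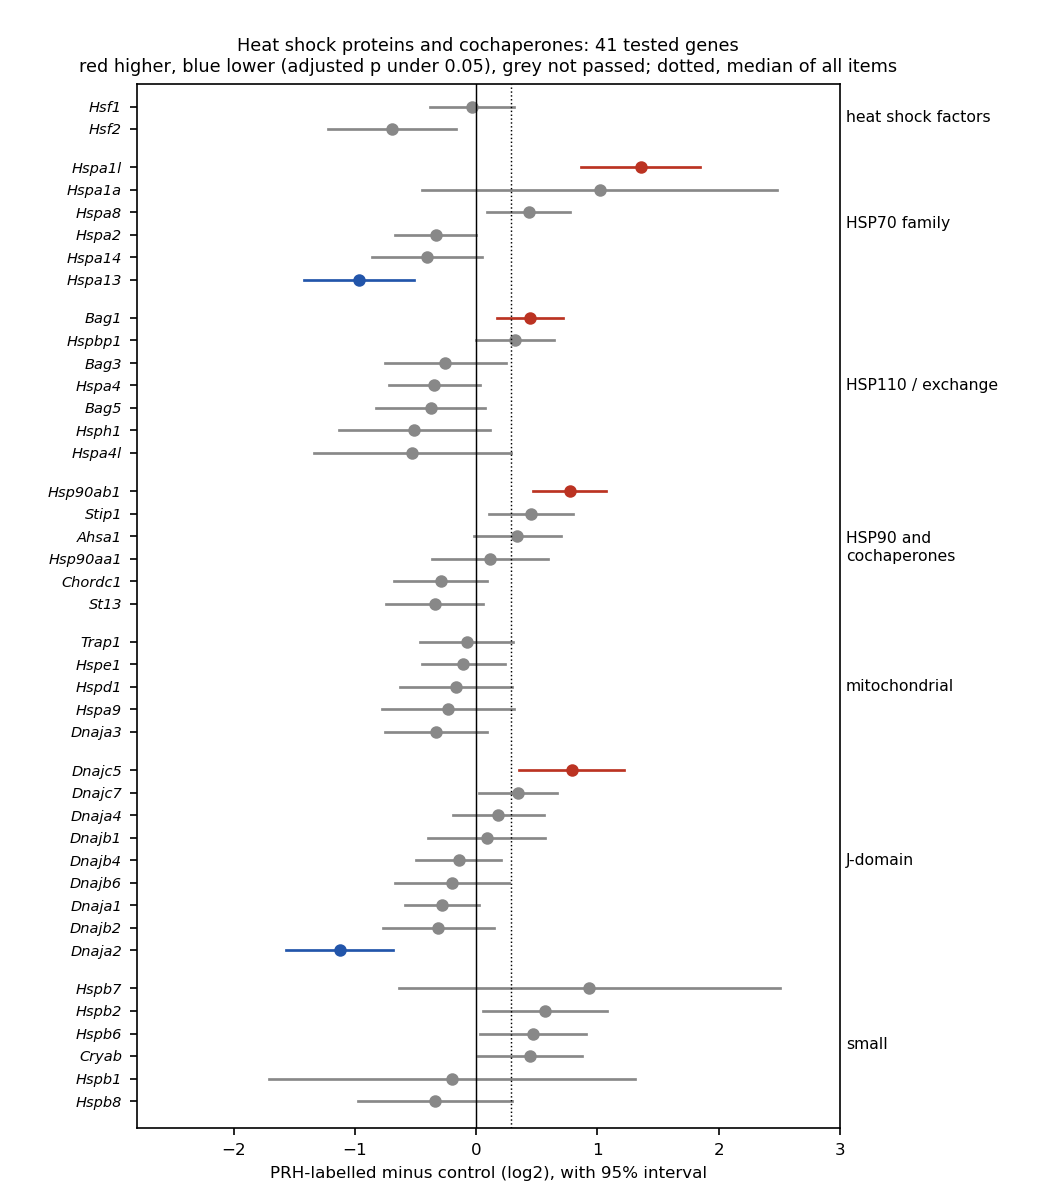
Difference between PRH-labelled and control tumours for the 41 tested genes (x axis, log2), each point with its 95% interval from limma, grouped by role on the y axis; red passed as higher, blue as lower, and the dotted line is the median of all items at 0.29. 4 genes are red and 2 are blue, while 35 are grey, and the widest intervals belong to Hspa1a, Hspb1 and Hspb7.

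The factors that control these genes came out close to level for Hsf1 and lower in value, without passing, for Hsf2. Hsf1, the main stress-activated factor, had levels of 1.11, 1.54, 1.48 and 1.38 in control mice 1, 2, 3 and 5 and of 1.22, 1.49, 1.46 and 1.22 in the PRH-labelled mice of the same numbers. The groups overlapped fully, and the difference was -0.03 (SE 0.149, adjusted p = 0.889), with a 95% interval from -0.38 to 0.31 that leaves room for a change of that size either way. Hsf2, which acts with Hsf1 and in development, stood at -1.26, -0.69, -0.40 and -0.73 in controls and at -1.85, -1.18, -1.45 and -1.38 in PRH-labelled tumours. Control mouse 1 reached into the PRH-labelled range and the other 3 controls lay above it. The difference of Hsf2 was -0.70 (SE 0.226, adjusted p = 0.0580), and blocking on mouse number gave an adjusted p of 0.0258. Without control mouse 1 it was 0.0149. Hsf2 also passed as lower without a block after median centring (adjusted p = 0.0217), with quantile normalization (0.0320) and among probes above background on all 8 arrays (0.0436). Hsf1 did not pass, and in the fit at the 75th percentile over all items 1 of the 2 had an unadjusted p under 0.05. An mRNA level does not read the activity of these factors, which is set largely on the protein.

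In the HSP70 family 1 of 6 tested genes was higher, 1 was lower, and the median difference was 0.05. Hspa1l, a close relative of the stress-induced HSP70 genes that is best known from the testis and lies beside them on the chromosome, had levels of -1.64, -2.31, -2.51 and -2.22 on the control arrays and -0.57, -0.99, -0.93 and -0.79 on the PRH-labelled arrays. The groups did not overlap: the nearest pair is control mouse 1 and PRH-labelled mouse 2. The gene was 2.56-fold higher in the PRH-labelled group (-0.82 ± 0.185 against -2.17 ± 0.375, SD, n = 4 each; log2 difference 1.36, SE 0.212, adjusted p = 0.00726). Among the tested items Hspa1l lay in brightness group 6 of 10, with 10 the brightest. Items of that group had a median difference of 0.31, with 19.5% of them higher.

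Hspa13, which codes for a truncated HSP70-like ATPase of the secretory pathway, was 1.96-fold lower. Its levels were 0.73, 1.36, 1.57 and 1.34 in controls and 0.28, 0.33, 0.14 and 0.37 in PRH-labelled tumours. Every PRH-labelled array lay below every control array, with control mouse 1 nearest to them. The difference was -0.97 (SE 0.195, adjusted p = 0.0120; 1.25 ± 0.360 against 0.28 ± 0.101, SD, n = 4 each), and a further probe of the gene gave -0.80 (adjusted p = 0.0430 in the fit of all probes).

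Hspa8 is the constitutive HSP70 of the cytosol and a very abundant chaperone. Its brightest probe read 7.35, 7.29, 7.60 and 7.58 in controls and 7.86, 7.64, 8.03 and 8.01 in PRH-labelled tumours. These groups did not overlap, but the difference of 0.43 (SE 0.148) had an adjusted p of 0.0674, or 0.0487 after blocking on mouse number. A pair of further Hspa8 probes gave differences of -0.26 and -0.36, the opposite sign, so the direction for this gene was not settled. Hspa2, a testis-rich HSP70, did not pass (difference -0.33, SE 0.145, adjusted p = 0.130). Under each of the other 4 scalings compared further on it passed as lower, with differences of -0.80 to -0.57 and adjusted p of 0.0119 to 0.0231. Hspa14, a ribosome-associated HSP70, had a value of -0.40 (SE 0.195) and did not pass.

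Hspa1a is the classical heat-inducible HSP70, and its spread in the control group was wide. Its levels were 2.88, 2.82, -0.06 and 2.26 in control mice 1, 2, 3 and 5 and 3.17, 2.98, 2.68 and 3.16 in the PRH-labelled mice. A single array stood apart: control mouse 3 was 6.59-fold below the mean of the other 3 controls. The difference of 1.02 (SE 0.630, adjusted p = 0.268) had a 95% interval from -0.44 to 2.48, and without control mouse 3 it was 0.34 (SE 0.214, adjusted p = 0.296). Hspa1b is a near-identical copy of this gene, and whether the Hspa1a probe also reads its transcript was not tested.

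Control mouse 3 was low in a small part of the set. The 3 members furthest below the mean of the other controls were Hspb1 (6.87-fold), Hspa1a (6.59-fold) and Hspb7 (6.43-fold), at percentiles 1.97, 2.13 and 2.28 of this deviation over all items. Hspb7 was dim, at -6.34 on this array, the lowest level of any tested member, and was well above background on 3 of 4 control arrays. Its fold is thus less certain than those of Hspb1 and Hspa1a. Dnajb1, also heat-inducible, deviated by -0.60 on the log2 scale. Other chaperones of the same array lay above the other controls, among them Hspa4l by 1.13, Hspa14 by 0.69 and Hsp90aa1 by 0.68, so the whole set was not low there. Summed levels of marker lists on that array stood below the other controls for endothelium (12.5 against 22.4 to 34.3), smooth muscle (28.8 against 48.8 to 55.1), skeletal muscle (10.3 against 10.8 to 28.7), adipocytes (3.28 against 10.3 to 98.5) and immediate early genes (49.0 against 58.9 to 71.1). Such sums weigh the brightest genes most. By mean log2 level the immediate early genes stood at 1.590 on that array, level with control mouse 1 at 1.592. Control mice 2 and 5 stood at 2.00 and 2.05. The part of these markers in the low Hspa1a, Hspb1 and Hspb7 values was not tested. In bulk samples fewer cells of a type and less RNA per cell cannot be told apart.

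**Figure D2:**
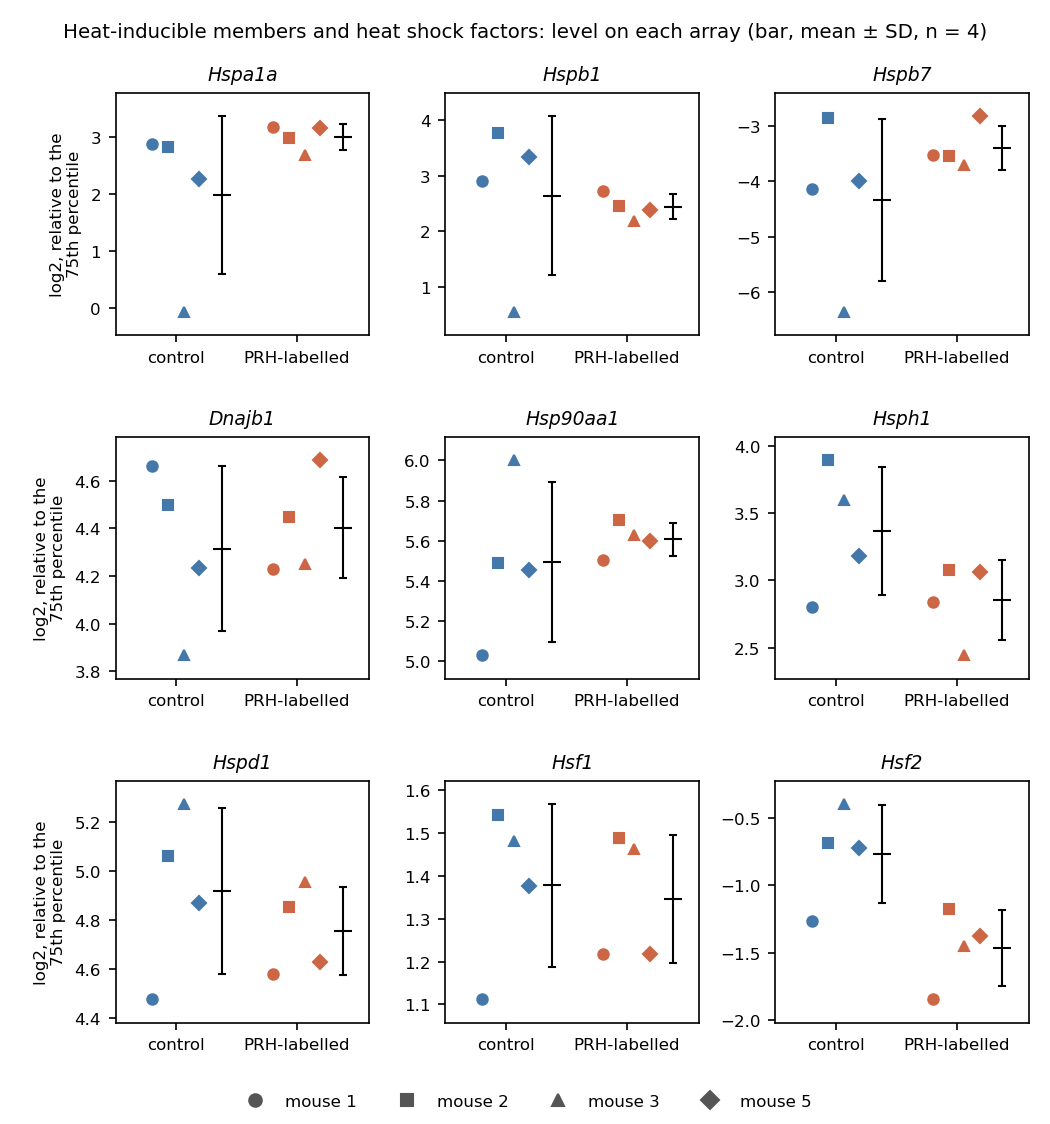
Level on each array (y axis, log2 signal above the array's 75th percentile) of 6 heat-inducible genes, the small heat shock protein Hspb7 and the factors Hsf1 and Hsf2, in control (blue) and PRH-labelled (orange) tumours, with marker shapes for mouse numbers and bars for mean ± SD (n = 4). Control mouse 3 lies far below the other controls for Hspa1a, Hspb1 and Hspb7, and above them for Hsp90aa1.

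Heat shock factors bind repeats of the letters GAA in alternating orientation, and the promoters of the set were searched for this pattern. The windows run from 250 bases before to 50 bases after each start site in RefSeq (assembly GRCm38.p6, not the mm9 build on which the array was designed), and 34 members matched an entry. A pair of units (GAANNTTC or TTCNNGAA, each its own reverse complement, overlapping matches counted) was found in 14 of 34 members (41.2%), beside 17.0% of 27025 genes in the same table. A run of 3 alternating units was found in 5 members (14.7%: Hsph1, Chordc1, Hspd1, Hspe1 and Dnajb6), beside 0.662% of all genes. A match is a description of letters and no binding was measured here. Of the 6 genes that passed, Hspa1l, Bag1 and Dnaja2 matched a window, and none of those windows holds a pair of units. The 200 bases before the start are shown, in capitals where they match a pair of units, for the neighbours Hspa1a (chr17:34972157-34972356, minus strand) and Hspa1l (chr17:34972503-34972702, plus strand), since the first holds a match and did not pass while the second holds none and was higher. Hspb1 (chr5:135887719-135887918, plus strand) is shown because it, like Hspa1a, was low in control mouse 3, as was Hspb7, whose window holds no match. Hspe1 (chr1:55087948-55088147, plus strand) and Dnajb6 (chr5:29735698-29735897, plus strand) are shown for their longer runs. The Hspe1 stretch shares 185 of its 200 bases with the same region of Hspd1, which is read from the opposite strand. The windows of Hspa1a and Hspa1b carry the same base at 296 of 300 positions.
Hspa1a: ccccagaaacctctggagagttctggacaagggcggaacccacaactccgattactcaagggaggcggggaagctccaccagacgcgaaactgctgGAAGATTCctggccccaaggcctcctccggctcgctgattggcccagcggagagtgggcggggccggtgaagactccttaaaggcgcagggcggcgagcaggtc
Hspa1l: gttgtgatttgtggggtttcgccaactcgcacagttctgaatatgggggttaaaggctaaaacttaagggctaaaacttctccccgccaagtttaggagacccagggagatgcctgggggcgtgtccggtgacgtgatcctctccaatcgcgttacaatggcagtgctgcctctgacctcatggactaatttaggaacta
Hspb1: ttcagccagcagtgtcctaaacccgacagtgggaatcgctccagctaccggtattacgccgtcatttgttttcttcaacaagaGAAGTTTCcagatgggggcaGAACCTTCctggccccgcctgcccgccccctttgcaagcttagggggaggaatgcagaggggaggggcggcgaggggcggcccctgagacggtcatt
Hspe1: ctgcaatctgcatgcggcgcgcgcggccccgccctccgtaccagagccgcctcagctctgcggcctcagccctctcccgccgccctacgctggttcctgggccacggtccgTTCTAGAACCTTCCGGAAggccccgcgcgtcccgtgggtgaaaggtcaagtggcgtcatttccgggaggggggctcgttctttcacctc
Dnajb6: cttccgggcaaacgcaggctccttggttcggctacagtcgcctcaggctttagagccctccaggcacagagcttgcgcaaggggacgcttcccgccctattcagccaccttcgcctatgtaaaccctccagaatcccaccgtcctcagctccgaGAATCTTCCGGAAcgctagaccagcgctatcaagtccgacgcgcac

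Among HSP110 proteins and nucleotide exchange factors, which release the bound protein from HSP70, 1 of 7 was higher and the median difference was -0.34. Bag1 joins HSP70 to the proteasome and also binds anti-apoptotic BCL2. Its brightest probe read 5.35, 5.53, 5.59 and 5.45 in controls and 5.88, 5.95, 6.01 and 5.87 in PRH-labelled tumours, with no overlap and little spread in either group. Bag1 was 1.36-fold higher (5.93 ± 0.069 against 5.48 ± 0.102, SD, n = 4 each; difference 0.45, SE 0.117, adjusted p = 0.0279). This call rested on the probe and on the scaling: a further Bag1 probe differed by -0.49 (adjusted p = 0.151), and the brightest probe by -0.02 when arrays were centred on the median signal. Its adjusted p rose to between 0.0585 and 0.0761 when any 1 array other than control mouse 1 or 3 was left out.

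Hsph1, the stress-induced HSP110, had levels of 2.80, 3.89, 3.59 and 3.18 in controls and 2.84, 3.07, 2.44 and 3.06 in PRH-labelled tumours. The groups overlapped, because control mouse 1 lay among the PRH-labelled values, and the difference was -0.51 (SE 0.269, adjusted p = 0.202). The related Hspa4l (-0.53, SE 0.350) and Hspa4 (-0.34, SE 0.163) had values of the same sign without passing. A dimmer probe of Hspa4 differed by -0.82 (adjusted p = 0.0442 in the fit of all probes). Bag5 (-0.37, SE 0.193), Bag3, the partner of Hspb8 in selective autophagy (-0.25, SE 0.215), and Hspbp1, a nucleotide exchange factor of HSP70 (0.32, SE 0.140), did not pass either.

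HSP90 and its cochaperones held 1 higher gene of 6, with a median difference of 0.23. Hsp90ab1, the constitutive HSP90 of the cytosol, stood at 7.36, 7.51, 7.44 and 7.49 in controls and 8.24, 8.20, 8.43 and 8.03 in PRH-labelled tumours. The gap between the groups was wider than the range within either. The gene was 1.71-fold higher (8.22 ± 0.163 against 7.45 ± 0.068, SD, n = 4 each; difference 0.77, SE 0.130, adjusted p = 0.00783). It passed under 2 of 5 scalings of the arrays, the 75th percentile and quantile normalization, and the difference was 0.27 to 0.31 under the other 3.

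Hsp90aa1, the stress-inducible form, did not pass. Its levels were 5.03, 5.49, 6.00 and 5.45 in controls and 5.50, 5.70, 5.63 and 5.60 in PRH-labelled tumours. All PRH-labelled values lay inside the control range, and the difference was 0.11 (SE 0.207, adjusted p = 0.694, 95% interval -0.37 to 0.60). Stip1, the scaffold that passes client proteins from HSP70 to HSP90, read 3.56, 3.61, 3.84 and 3.48 against 4.22, 4.25, 3.93 and 3.91. These groups did not overlap, and its difference of 0.45 (SE 0.149) had an adjusted p of 0.0596. Stip1 passed without control mouse 3 (adjusted p = 0.0498), with quantile normalization (0.0412) and with normexp (0.0391), and stood at -0.01 after median centring. Ahsa1, which speeds up the ATPase of HSP90 (0.34, SE 0.154), St13, which steadies the HSP70 complex (-0.34, SE 0.172), and Chordc1, an HSP90-binding protein (-0.29, SE 0.166), did not pass.

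**Figure D3:**
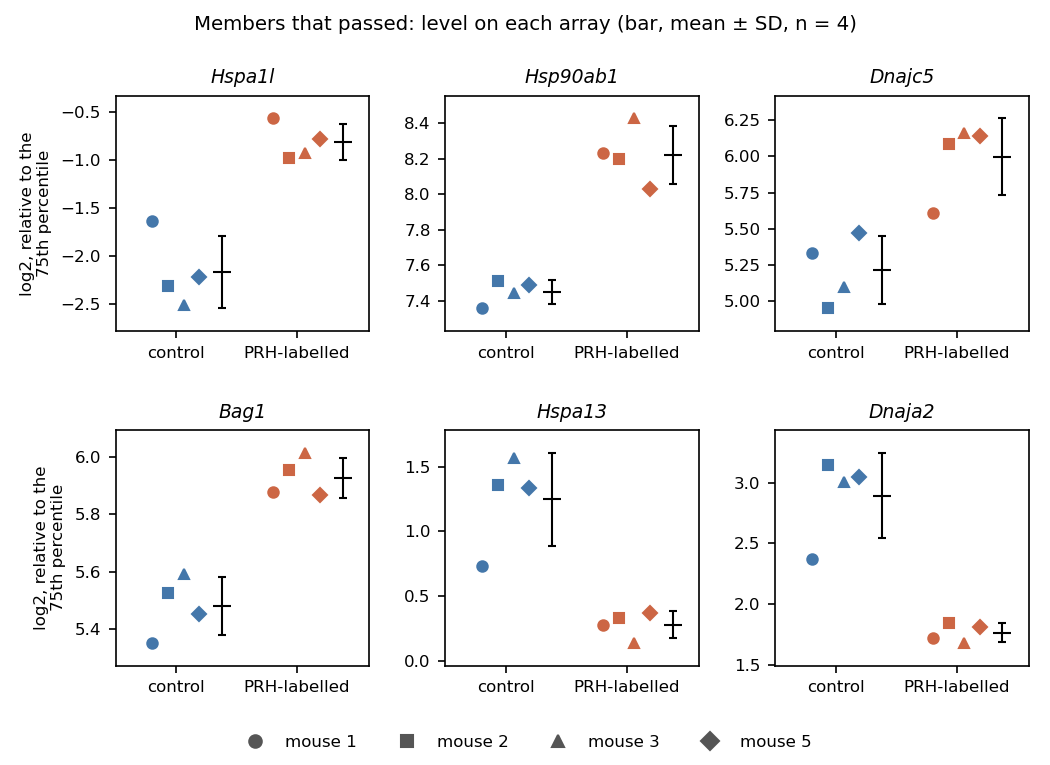
Level on each array (y axis, log2 signal above the array's 75th percentile) of the 6 genes that passed, in control (blue) and PRH-labelled (orange) tumours, with marker shapes for mouse numbers and bars for mean ± SD (n = 4). The groups do not overlap for any of the 6, and control mouse 1 is the control nearest to the PRH-labelled values for Hspa1l, Hspa13 and Dnaja2.

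J-domain proteins deliver client proteins to HSP70 and start its ATPase. Of 9 tested, 1 was higher and 1 lower, with a median difference of -0.14. Dnaja2, a cytosolic cochaperone used in refolding, read 2.37, 3.15, 3.01 and 3.04 in controls and 1.72, 1.85, 1.69 and 1.82 in PRH-labelled tumours. The PRH-labelled values were tight and all lay below the lowest control, mouse 1. Dnaja2 was 2.18-fold lower (1.77 ± 0.077 against 2.89 ± 0.351, SD, n = 4 each; difference -1.12, SE 0.190, adjusted p = 0.00786), while a dimmer probe differed by -0.38 (adjusted p = 0.139).

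Dnajc5 codes for cysteine string protein, a membrane-anchored cochaperone of vesicle release. Its brightest probe read 5.33, 4.95, 5.10 and 5.47 in controls and 5.61, 6.08, 6.17 and 6.14 in PRH-labelled tumours. The groups did not overlap, but PRH-labelled mouse 1 lay close to control mouse 5. By this probe Dnajc5 was 1.73-fold higher (6.00 ± 0.264 against 5.21 ± 0.234, SD, n = 4 each; difference 0.79, SE 0.187, adjusted p = 0.0203). A further, dimmer probe read -0.27, 0.16, 0.12 and 0.04 in controls against -0.38, -0.37, -0.61 and -0.54, which is lower by the same test (difference -0.49, adjusted p = 0.0406 in the fit of all probes). No direction for the gene as a whole can be given from probes that passed in opposite directions. Leaving out single arrays ended the call of the brightest probe in 4 of 8 cases: control mouse 2 (adjusted p = 0.0551), and PRH-labelled mice 2 (0.0559), 3 (0.0522) and 5 (0.0586).

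Dnajb1, the heat-inducible partner of HSP70, had levels of 4.66, 4.50, 3.87 and 4.23 in controls and 4.23, 4.45, 4.25 and 4.69 in PRH-labelled tumours. They overlapped over most of their range (difference 0.09, SE 0.208, adjusted p = 0.767). Dnajb6, which holds back aggregation of polyglutamine proteins, had a brightest probe at -0.20 (SE 0.202, adjusted p = 0.480), whereas both of its probes for another transcript accession passed in the fit of all probes, at -0.70 (adjusted p = 0.0199) and -0.62 (adjusted p = 0.0278). These are annotated to a different RefSeq transcript from the brightest probe, and whether they read only that transcript was not tested. A further probe with the annotation of the brightest one differed by -0.36 (adjusted p = 0.297 in the fit of all probes). The values of Dnajc7 (0.34), Dnaja4 (0.18), Dnajb4 (-0.14), Dnaja1 (-0.28) and Dnajb2 (-0.31) did not pass.

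None of the 5 mitochondrial chaperones passed in limma, and none had an unadjusted p under 0.05. Hspd1 and Hspe1 code for the barrel and the lid of the mitochondrial chaperonin and start from the shared stretch shown above. Hspd1 read 4.48, 5.06, 5.28 and 4.87 in controls against 4.58, 4.85, 4.95 and 4.63, a difference of -0.17 (SE 0.199, adjusted p = 0.551). Hspe1 read 5.41, 5.64, 5.88 and 5.54 against 5.35, 5.61, 5.62 and 5.46, a difference of -0.10 (SE 0.148, adjusted p = 0.618). In both genes the order of the mice was alike, with mouse 1 lowest and mouse 3 highest in each group. A much dimmer Hspe1 probe differed by -1.62 (adjusted p = 0.0215 in the fit of all probes), while another bright one gave -0.14. The mitochondrial HSP70 Hspa9 (-0.23, SE 0.234), the mitochondrial HSP90 Trap1 (-0.08, SE 0.166) and the J-domain protein Dnaja3 (-0.33, SE 0.181) also had negative values, with Trap1 at 0.02 under 1 of the 5 scalings compared further on.

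The small heat shock proteins had the highest median difference of the role groups, 0.46, with 0 of 6 passing in limma and 3 with an unadjusted p under 0.05. Hspb1, the heat-inducible member, read 2.90, 3.77, 0.55 and 3.33 in controls and 2.73, 2.46, 2.18 and 2.39 in PRH-labelled tumours. Again control mouse 3 was far below the others, and the PRH-labelled values lay between it and the remaining controls. The difference was -0.20 (SE 0.650, adjusted p = 0.833) with all arrays. Without control mouse 3 Hspb1 passed as 1.86-fold lower (control mean 3.33 ± 0.436, SD, n = 3; difference -0.89, SE 0.242, adjusted p = 0.0456), so its call depends on that array.

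Hspb2, Cryab, Hspb6 and Hspb7 had positive values that did not pass at the 75th percentile scaling, and Hspb8 had a negative one. Hspb2 read 0.22, 1.22, 0.89 and 0.94 in controls and 1.26, 1.47, 1.32 and 1.52 in PRH-labelled tumours, with no overlap (difference 0.57, SE 0.220, adjusted p = 0.0958). It passed as higher with normexp (adjusted p = 0.0382) and with the authors' deposited normalized values (0.0375), and stood at 0.11 after median centring. Cryab, alpha-B crystallin, which lies beside Hspb2, read 2.60, 3.33, 3.07 and 2.84 against 3.61, 3.41, 3.29 and 3.31 (0.44, SE 0.183, adjusted p = 0.116). By this probe Cryab passed with normexp (adjusted p = 0.0484) and stood at -0.02 after median centring. A further, dimmer Cryab probe differed by 0.08 (adjusted p = 0.801 in the fit of all probes). Hspb6, known from smooth and cardiac muscle, differed by 0.47 (SE 0.189, adjusted p = 0.107, or 0.0292 without PRH-labelled mouse 3), and by 0.0049 after median centring. Hspb7, a heart and muscle protein, was dim, was well above background on 3 of 4 control arrays, and differed by 0.93 (SE 0.676, adjusted p = 0.337), or 0.26 without control mouse 3. Hspb8, the Bag3 partner, had -0.34 (SE 0.273).

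Muscle markers were read beside these values. Of 6 tested smooth muscle markers 1 passed as higher (Tagln, 16.7% beside 17.2% of all items). The summed level of the list was 28.8 to 55.1 in controls and 60.4 to 82.0 in PRH-labelled tumours, without overlap. That sum is mostly Tagln and Acta2, the brightest of the list. The mean log2 level overlapped (-1.93 to -0.82 in controls, -1.48 to -0.14 in PRH-labelled tumours). Lmod1, a defining marker of smooth muscle, was not well above background. Of 12 skeletal muscle markers 2 were higher (Mylpf and Tnni2; also 16.7%), with overlapping summed levels of 10.3 to 28.7 and 18.3 to 29.1. The part of muscle in the Hspb2, Hspb6 and Cryab values was not tested. Of the epithelial markers 2 of 6 were higher, 33.3% beside 17.2% of all items (Krt14 in all 5 scalings and Krt18 in 1). Krt8 differed by -0.44 without passing. The summed epithelial level, mostly Krt18, was 258 to 339 in controls and 343 to 458 in PRH-labelled tumours. The mean log2 level overlapped (3.19 to 4.80 and 4.01 to 5.23). Of the immediate early genes 3 of 11 were lower, beside 8.67% of all items (Dusp1, Zfp36 and Btg2). Their summed level was 49.0 to 71.1 in controls and 64.1 to 68.0 in PRH-labelled tumours. For all the chaperones the part of these differences was not tested.

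Where a member had several probes, these did not always agree in sign. Of the 41 tested members 14 had more than 1 tested probe, and in 7 of these the probes differed in sign (Hspa8, Bag1, Bag5, Dnaja1, Dnaja4, Dnajb2 and Dnajc5). Dnajc5 alone had probes past the threshold in both directions. Neither count was taken over all genes with more than 1 tested probe, so neither can be read as particular to this set. When each probe was fitted on its own, 4 of the members' 61 tested probes were higher (6.56%, beside 16.1% of all probes) and 8 lower (13.1%, beside 10.1%). The probes of Hspa13 passed together, at -0.97 and -0.80.

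**Figure D4:**
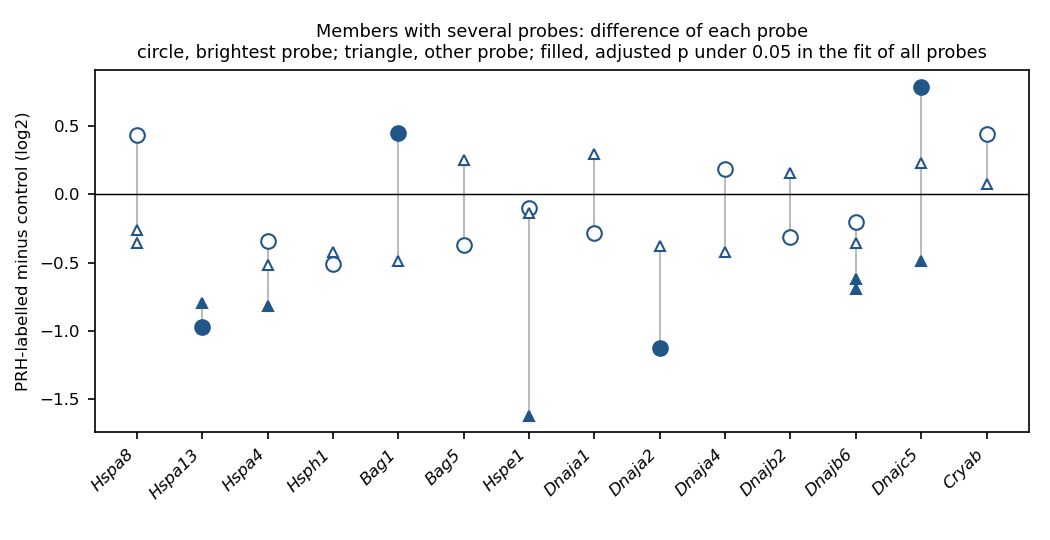
Difference between PRH-labelled and control tumours (y axis, log2) for every tested probe of the 14 genes with more than 1 (x axis); circles are the brightest probe, triangles the others, filled symbols passed in the fit of all probes, and grey lines join the probes of a gene. Filled symbols lie on both sides of 0 for Dnajc5, while both Hspa13 probes are filled and below 0.

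How far the members appear to move depends on how the arrays were brought to a common scale. With the 75th percentile 5938 items were higher and 2996 lower, with median centring 2926 and 7612, with quantile normalization 4144 and 4649, with normexp background correction 3589 and 4567, and with the authors' deposited normalized values 3666 and 4392. The median difference over all items moved with it, from 0.29 to -0.18, 0.06, 0.05 and 0.06. Across these 5 scalings Hspa1l was higher in all 5, as were 5.80% of all items, and Hspa13 and Dnaja2 were lower in all 5, as were 7.76%. These 3 calls also held in all 8 fits that left out 1 array, as did the higher call of Hsp90ab1, which passed under 2 of the 5 scalings. Bag1 and Dnajc5 were higher in 4 of 5, not after median centring. Centred on the 7 spike-in probes, no member passed in limma, and Hspa1l had a difference of 1.23 with an adjusted p of 0.130.

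**Figure D5:**
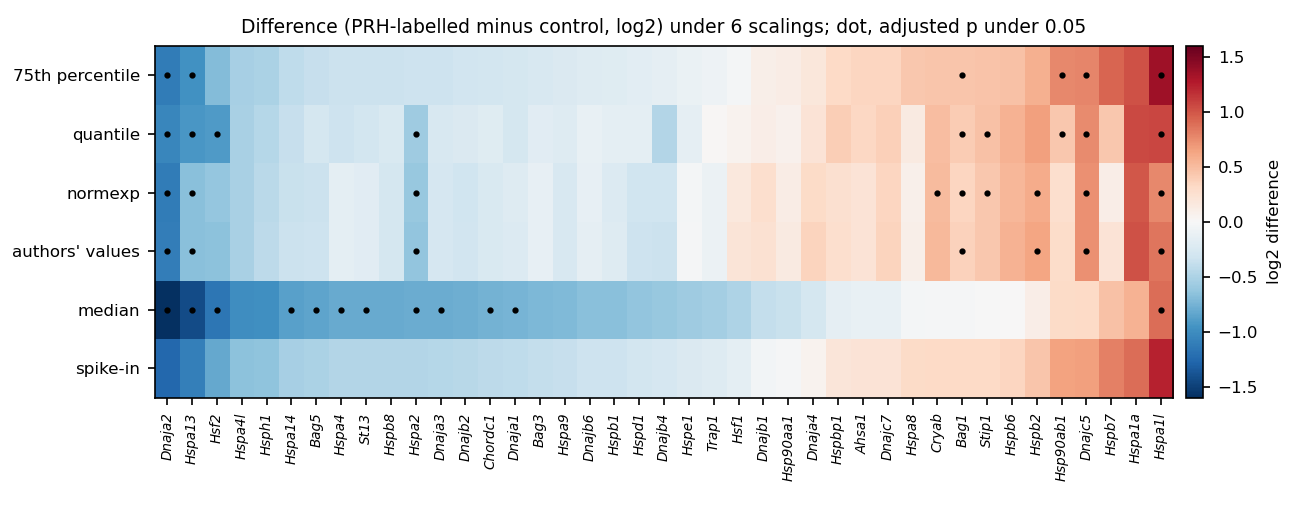
Difference between PRH-labelled and control tumours (colour, log2) of the 41 tested genes (x axis, ordered by the value at the top) under 6 ways of scaling the arrays (y axis), with a dot where the adjusted p was under 0.05. Hspa1l, Hspa13 and Dnaja2 carry a dot in the first 5 scalings, the spike-in scaling has none, and median centring moves the whole set towards lower values.

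The control tumours differed among themselves more than the PRH-labelled ones. The SD over the 4 arrays was larger in controls for 33 of 41 members, with medians of 0.307 and 0.148 on the log2 scale, and this was so for 61.9% of all items (medians 0.390 and 0.257). Control mouse 1 had the lowest of the 4 control levels in 26 of 41 members and the highest in 3. Over all items it was the lowest in 30.1% and the highest in 34.9%, so it was not low across the array. Its summed adipocyte markers were 98.5, beside 3.28 to 12.8 on the other 7 arrays, and its leukocyte markers 152 beside 87.1 to 105 on the other controls. Their part in the low chaperone levels was not tested. Without control mouse 1, 9 members were lower (Hspa13, Hspa4, Bag5, St13, Hspa9, Dnaja2, Dnajb2, Hspb8 and Hsf2; 22.0%) and 4 higher (9.76%). Lower calls grew in number over the whole array too, to 13.8% of all items, with 19.4% higher.

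Chaperones outside the set were read from a list of 45 related genes, of which 43 were tested. 2 were higher (4.65%, beside 10.6% of named genes and 17.2% of all items) and 7 were lower (16.3%, beside 12.9% and 8.67%), with a median difference of -0.16. In TRiC, the chaperonin that folds actin and tubulin, 2 of 8 subunits were lower, Tcp1 by a log2 difference of -0.87 (SE 0.164, adjusted p = 0.0101) and Cct8 by -0.53. Prefoldin, which feeds TRiC, had Pfdn4 (-1.06) and Vbp1 (-0.84) lower and Pfdn5 (0.54) higher among 6 subunits, though Pfdn5 passed under 2 of the 5 scalings only. Of 10 further HSP90 cochaperones the phosphatase Ppp5c was lower (-0.93). Among 11 chaperones of the endoplasmic reticulum Hyou1 (-1.03) and Dnajb9 (-0.64) were lower, and Sil1, the exchange factor of its HSP70, was higher (0.67). Cct8 and Sil1 kept their call in 4 of the 5 scalings and Dnajb9 in 3, and the other 5 lower genes in all 5. Of 6 further heat-induced genes none passed in limma and 1 had an unadjusted p under 0.05.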

How the data were processed

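Total RNA was measured on 8 Agilent 1-colour arrays, 4 a group, grouped by the labels. The deposited intensity values are on a linear scale and were made with Feature Extraction 10.7.3.1 per the file headers (the submitters' processing notes name 9.1). The authors' normalized table, deposited as linear intensity values with medians of 124 to 126, served as an alternative; its background correction is not given in the sources used here. Levels are log2 of the processed signal minus each array's log2 75th percentile over non-control spots. Outlier spots were left out where a probe had others, and spots of a probe were averaged. Probes well above background on at least 4 of 8 arrays were kept (39463 probes). Probes were named through RefSeq accessions and a gene table of GRCm38.p6 (26582 probes with a symbol). The brightest probe stands for a gene. The test was limma 3.58.1 (R 4.3.3), two-sided with lmFit and eBayes, and every adjusted p is Benjamini-Hochberg over its 34543 items unless stated. The script was tested on simulated data. No spot was saturated, and precision is limited by the number of arrays. Spread here means that between single tumours. Control and PRH arrays of the same mouse number deviated together (correlations 0.203, 0.436, 0.665 and 0.274 over all items, each above 0.1; 0.308, -0.252, 0.350 and 0.135 over the members alone, where mouse 2 went the other way), and by the correlations over all items the numbers were taken as pairs in an alternative fit. Control and PRH arrays of the same mouse number also lay in the same slide row, so mouse number and row position cannot be told apart. Correlations between arrays of different numbers are not given here, so the pairing by mouse is not settled. The members, lists and alternatives were chosen with earlier results of these data known. Values are given on every array for members that passed, the heat-inducible members, both heat shock factors and members whose probes passed in opposite directions; those of Hspa8, Stip1, Hspd1, Hspe1, Hspb2 and Cryab were added after their values were seen. Although the design text names human arrays, the accessions are of mouse.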

Additional observations from a re-analysis of the deposited data

Results flagged for a closer look

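Single arrays stood apart from the other 3 of their group in 5 of the 82 groups of 4 tested (41 members in both groups), by a rule that marks about 1 group in 20 by chance and that marked 7.57% of all items in controls and 10.3% in the PRH-labelled group. Dnajb2 was lowest in control mouse 1, at 0.67 with the other controls at 1.32 to 1.42. Dnajc5 was lowest in PRH-labelled mouse 1, at 5.61 beside 6.08 to 6.17. Dnajc7, a cochaperone that binds HSP70 and HSP90, was highest in control mouse 3, at 3.53 beside 3.22 to 3.27. Hspb6 was highest in control mouse 5, at 1.45 beside 1.24 to 1.25, and lowest in PRH-labelled mouse 3, at 1.26 beside 1.89 to 2.02. The wide gaps of control mouse 3 in Hspa1a and Hspb1 did not meet this rule, since the other controls were spread as well.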

How the results depend on the processing

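The count of members that passed moved with the scaling. Beside 4 higher and 2 lower, median centring gave 1 and 11, quantile normalization 5 and 4, centring on the spike-in probes 0 and 0, averaging the probes of a gene 2 and 2, and eBayes with a trend 7 and 2. The background moved as well. Of 34543 items, 5938 were higher and 2996 lower in the main fit. Median centring gave 2926 and 7612 items, quantile normalization 4144 and 4649, and the spike-in probes 0 and 1. Averaging probes gave 5709 and 2931 items, and the trend 5979 and 3364. The median difference of members was -0.61 after median centring. Bag1 turned to -0.0185 after median centring and to -0.0216 as the mean of its probes. Over all items 8934 passed, 1 with the spike-in probes, and 5733 to 11467 when 1 array was left out (5733 without PRH-labelled mouse 1, 5827 without control mouse 2, 5774 without control mouse 5, 11467 without control mouse 1). Leaving out 1 array gave 2 to 5 higher members, with 2 without control mouse 2 or PRH-labelled mouse 2 or 5, and 2 to 9 lower members, with 9 without control mouse 1 and 3 without control mouse 3. The same fits called 4152 to 6688 of all items higher and 1536 to 4779 lower, with both maxima without control mouse 1. The trend added Hspa8, Stip1 and Dnajc7, and the filter of all 8 arrays added Hspa8, Stip1 and Hsf2. With the mouse number as a block 5 members were higher (12.2%) and 3 lower (7.32%), which added Hspa8 and Hsf2 and changed no other member's call. In that fit 12233 of 34543 items passed, 9283 as higher and 2950 as lower. Fitting every probe as an item and normexp were chosen after seeing the data: the files hold median signals, so normexp was run on those and not on mean signals as planned. Slide column cannot be told apart from group under any setting, nor slide row from mouse number in the fit with the block.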
